A study of Mus musculus with 4 samples.

Results

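The cyclin-dependent kinase (CDK) inhibitor genes Cdkn1a, Cdkn1b, Cdkn2a, Cdkn2b, Cdkn2c and Cdkn2d, the p53 gene Trp53, the p53 targets Mdm2 and Ccng1, and the retinoblastoma gene Rb1 are described here in cultured smooth muscle cells. These 10 genes were taken by name from a table of 25965 genes. The cells came from the medial layer of the aorta of healthy male mice (8 to 14 weeks, genotype wild type, background C57Bl/6), were dissociated with collagenase and elastase, and went through 3 to 5 passages in DMEM with fetal calf serum. All 4 polyadenylated RNA libraries were of 1 group, so genes were compared within libraries and libraries with each other, with no treated or uncultured counterpart. The labels do not say whether the libraries came from separate animals or cultures, so the spread between them may be technical.

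CDK inhibitors hold the cell cycle in G1. The Cip/Kip proteins p21 (Cdkn1a) and p27 (Cdkn1b) bind cyclin and CDK complexes, and the INK4 proteins p16 (Cdkn2a), p15 (Cdkn2b), p18 (Cdkn2c) and p19 (Cdkn2d) bind Cdk4 and Cdk6. Both keep Rb1 in the form that restrains E2F transcription factors. p53 induces Cdkn1a, Mdm2 and Ccng1 after stress, Mdm2 marks p53 for degradation, and the Arf protein, read from Cdkn2a in another frame, inhibits Mdm2. In the arterial wall these genes are known for limiting smooth muscle proliferation and for their rise in senescent cells.

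Promoter sequence is shown for members whose window holds a p53 or E2F element, because these are the elements through which p53 and E2F are known to act. RefSeq promoter windows (GRCm38.p6, 250 bases before to 50 after a start) were found for 9 of 10 members, 12 windows in all, with a second start for Cdkn1a, Cdkn2a and Cdkn2c. A full p53 site (20 bases, both strands, at most 1 mismatch to the p53 consensus) was found in 29 of 32851 windows (0.0883%), and 2 of the members, Cdkn1a and Ccng1, were among them. Of the 32 other p53 targets listed below, 24 had a window under their symbol, and 1 of these, Gtse1, held a full site. The exact 10-base p53 element, of which the full site is a pair and with which it overlaps, was found in 8.36% of windows and in 5 members, Cdkn1a, Ccng1, Mdm2, Trp53 and Cdkn2d. Capitals mark full p53 sites or 10-base p53 elements in the first 5 sequences, and an E2F element in that of Cdkn2a, all 5′ to 3′ on the strand of the gene.
Cdkn1a: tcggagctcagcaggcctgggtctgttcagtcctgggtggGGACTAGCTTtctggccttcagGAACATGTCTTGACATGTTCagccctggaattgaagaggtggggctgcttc
Ccng1: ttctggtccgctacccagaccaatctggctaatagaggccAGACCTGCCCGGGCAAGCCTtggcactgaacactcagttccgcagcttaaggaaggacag
Mdm2: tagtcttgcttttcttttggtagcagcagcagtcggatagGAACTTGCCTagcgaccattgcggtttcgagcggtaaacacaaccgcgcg
Trp53: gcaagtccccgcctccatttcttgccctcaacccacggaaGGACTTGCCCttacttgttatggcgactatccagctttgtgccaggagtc
Cdkn2d: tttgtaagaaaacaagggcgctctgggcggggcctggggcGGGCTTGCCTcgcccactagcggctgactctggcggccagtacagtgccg
Cdkn2a: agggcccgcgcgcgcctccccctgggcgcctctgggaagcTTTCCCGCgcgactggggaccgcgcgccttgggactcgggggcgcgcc

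The Cdkn1a stretch lies at chr17:29090866-29090978 on the plus strand, before the upstream of its 2 starts, which are 2790 bases apart, and its full site begins 51 bases before that start. The Ccng1 stretch is at chr11:40755422-40755521 on the minus strand, with its full site beginning 195 bases before the start. Those of Mdm2 (chr10:117710895-117710984, minus), Trp53 (chr11:69580244-69580333, plus) and Cdkn2d (chr9:21291262-21291351, minus) hold a single exact element. The Cdkn2a stretch (chr4:89294671-89294758, minus) precedes the upstream start, that of the Arf transcript, 12427 bases from the other start. Its E2F element was the only match among the members to TTTCCCGC, TTTCGCGC, TTTGCCGC or TTTGGCGC on both strands, and 2.27% of windows held one. A match describes letters only and shows no binding, and reads were deposited per gene, not per start.

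The 29 windows with a full p53 site belonged to 29 genes, of which 14 were found in the table by that symbol and 6 were detected. Detection required a log2 value of 0 or more, 1 scaled read, in 4 of 4 libraries. Besides Cdkn1a and Ccng1 these were Gtse1, a p53-induced regulator of p53 in G2 (5.64 ± 0.70, log2 scaled reads, mean ± SD, n = 4), Rps27l, a ribosomal protein paralog known as a p53 target (6.12 ± 0.46), the folate enzyme gene Mthfd1 (6.81 ± 0.60) and Calhm2 (4.19 ± 0.58). Cdkn1a and Ccng1 were the highest of the 6, a comparison of levels not divided by length. The other 4 were named after this match was seen.

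The libraries held 40342561 to 56793195 reads on genes, recovered from the deposited values, and members had 314 to 23478 reads in a library. All 10 members were detected, against 47.4% of all genes. Levels below are log2 scaled read counts and, unless said to be per kilobase, are not divided by transcript length. The deposited scaling left the median of detected genes at 5.49, 5.22, 4.78 and 4.95 in libraries 1 to 4, and median-ratio size factors brought these to 5.17, 5.12, 5.07 and 5.07. Smooth muscle markers were all detected (7 of 7, Acta2 12.18 ± 1.05, Myh11 7.44 ± 1.65), with summed scaled reads of 8046, 3680, 11603 and 16421. Adventitial fibroblast markers (7 of 7 detected) summed to 1088, 1040, 249 and 269, endothelial markers (4 of 7) to 55.6, 35.6, 52.7 and 17.1, leukocyte markers (0 of 7) to 8.94, 9.22, 2.16 and 1.86, and mesothelial markers (3 of 5) to 72.2, 62.6, 85.8 and 74.9. Genes within these lists differed. Among leukocyte markers, Cd3e had no reads in any library, Ptprc had 13, 27, 0 and 12, and Cd68 had 49, 35, 42 and 21. C1qa had 173, 201, 0 and 18, the most of this list in libraries 1 and 2. The mesothelial marker Lrrn4 had 52, 33, 0 and 0 reads. Upk3b of the same list had 1498, 458, 1024 and 731, and Krt19 473, 1209, 834 and 1438. The endothelial marker Pecam1 had 326, 235, 312 and 81 reads.

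**Figure D1:**
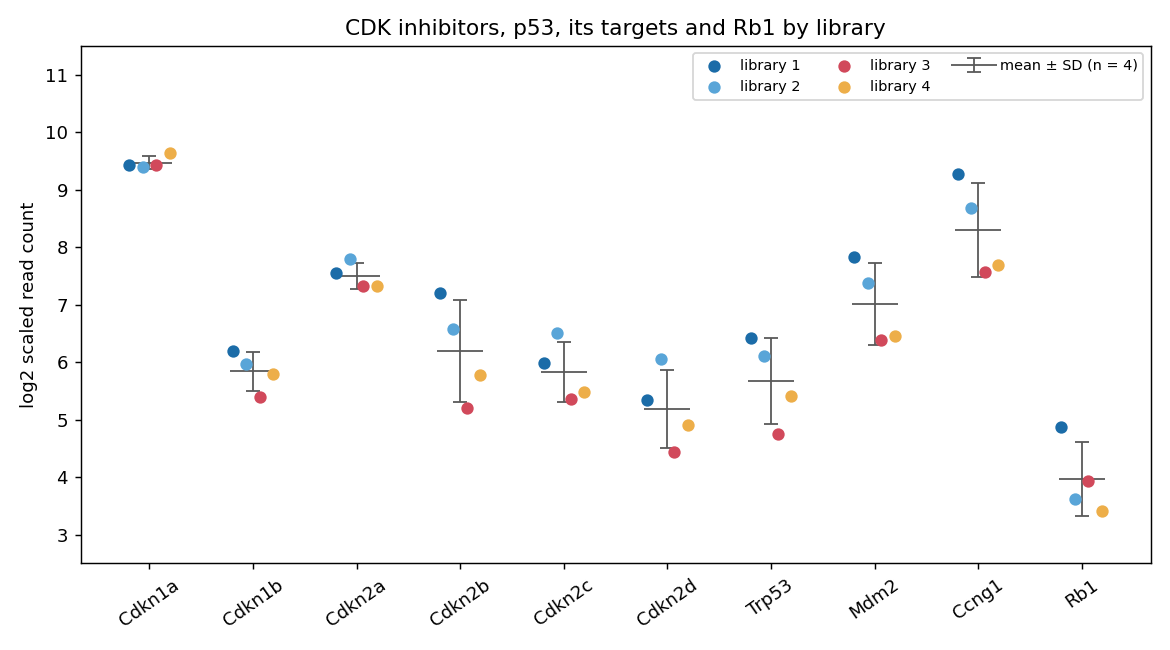
Log2 scaled read counts (y axis) of the 10 genes (x axis) in libraries 1 to 4 (coloured points), with the mean and SD over the 4 libraries (grey). Cdkn1a lay between 9.39 and 9.64 in all 4 libraries, while Ccng1 ran from 7.56 in library 3 to 9.27 in library 1.

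Of the Cip/Kip genes, Cdkn1a (chromosome 17, 29090979 to 29100722), encoding p21, was the highest member, with 19934, 19344, 15236 and 23478 reads and levels of 9.42, 9.39, 9.44 and 9.64 in libraries 1 to 4. The mean was 9.47 ± 0.12, and the lowest and highest library differed 1.19-fold. By level it exceeded 96.7% of detected genes. By spread it was among the steadiest, since 3.62% of detected genes had a lower SD. With median-ratio size factors the values were 9.10, 9.29, 9.73 and 9.76 (SD 0.33), with library 1 lowest, so its evenness held for the deposited scaling. Cdkn1b (chromosome 6, 134920401 to 134925513), encoding p27, had levels of 6.19, 5.96, 5.39 and 5.79 (5.84 ± 0.34), lowest in library 3. Under size factors its SD was 0.10.

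Cdkn2a (chromosome 4, 89274473 to 89294653), which encodes p16 and Arf from alternative first exons, was the highest INK4 gene, at 7.55, 7.80, 7.32 and 7.33 (7.50 ± 0.23). The table gives 1 value for the gene, so p16 and Arf transcripts cannot be told apart. Cdkn2b, its neighbour 11635 bases away (89306289 to 89311032), encodes p15, an inhibitor induced by TGF-beta. Its levels were 7.20, 6.58, 5.21 and 5.77 (6.19 ± 0.88), the widest SD of the members and a 4.00-fold range from 812 reads in library 3 to 4289 in library 1. The neighbours thus differed in spread: Cdkn2a varied 1.40-fold between its lowest and highest library. Cdkn2a and Cdkn2b are related in sequence, and how the counting assigned shared reads is not given in the sources used here.

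Cdkn2c (chromosome 4, 109660876 to 109667189), encoding p18, had levels of 5.98, 6.50, 5.36 and 5.48 (5.83 ± 0.52). Cdkn2d (chromosome 9, 21288463 to 21291209), encoding the INK4 protein p19, had 5.34, 6.05, 4.44 and 4.91 (5.18 ± 0.68). Both were highest in library 2 and lowest in library 3, where Cdkn2d had 478 reads against 1911 in library 2. Of the other 4 genes listed with the inhibitors, 2 were variable (3 with size factors, 0 without library 1). Cdkn1c, the imprinted Cip/Kip gene of p57, averaged 3.96 ± 0.73, and was lowest in library 1 (2.91) and highest in library 4 (4.58). Cdkn3, a phosphatase gene, averaged 2.62 ± 0.29, and the genes of Cdkn2a-interacting proteins, Cdkn2aip and Cdkn2aipnl, 2.86 ± 0.75 and 5.72 ± 0.35.

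Trp53 (chromosome 11, 69580359 to 69591873) had 2498, 2001, 588 and 1248 reads and levels of 6.43, 6.11, 4.74 and 5.41 (5.67 ± 0.75). Library 1 was highest and library 3 lowest, a 3.21-fold range. Mdm2 (chromosome 10, 117688888 to 117710758), the ubiquitin ligase gene that p53 induces, had levels of 7.82, 7.38, 6.38 and 6.46 (7.01 ± 0.71). Ccng1 (chromosome 11, 40748552 to 40755311), the p53 target gene of cyclin G1, had 17912, 11823, 4158 and 6076 reads and levels of 9.27, 8.68, 7.56 and 7.69 (8.30 ± 0.81). In these 3 genes, Cdkn2b and Cdkn1b the libraries ran from highest to lowest as 1, 2, 4, 3, which 29.5% of detected genes also did and which was the order of the deposited medians. With size factors Trp53 and Cdkn2b had this order and Mdm2, Ccng1 and Cdkn1b did not, against 11.2% of detected genes. Cdkn1a was highest in library 4 and lowest in library 2 as deposited.

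Rb1 (chromosome 14, 73183673 to 73325822), the pocket protein gene downstream of the inhibitors, was the lowest member, with 851, 355, 336 and 314 reads and levels of 4.87, 3.62, 3.93 and 3.42 (3.96 ± 0.64). Library 1 stood above the other 3, and without it the SD was 0.26. Rb1 overlaps Rcbtb2 (5.20 ± 0.59), Lpar6 (2.73 ± 0.67) and Gm17233 (0.80 ± 0.86) in the table's coordinates, and the strand setting of the counting is not given, so their reads may not be told apart from its own.

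Members were called variable when their SD over the 4 libraries was above 0.5 on the log2 scale. Of the 10 members 7 were, against 40.5% of detected genes, and Cdkn1a, Cdkn1b and Cdkn2a were not. The median SD was 0.66 over the members and 0.43 over detected genes. With size factors the count fell to 4 members (Cdkn2b, Cdkn2d, Ccng1 and Rb1), against 30.7% of detected genes. Without library 2 it was 5, against 43.8% of detected genes, and Cdkn2c (0.33) and Cdkn2d (0.45) were no longer called. Without library 1 it was 6, against 27.2%, and Rb1 was not called. Nearest the threshold were Cdkn2c (0.52) above it and Cdkn1b (0.34) below it. A chi-square test of recovered reads against Poisson sampling (Benjamini-Hochberg adjusted over 12306 genes) called all 10 members, but also 97.6% of detected genes.

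**Figure D2:**
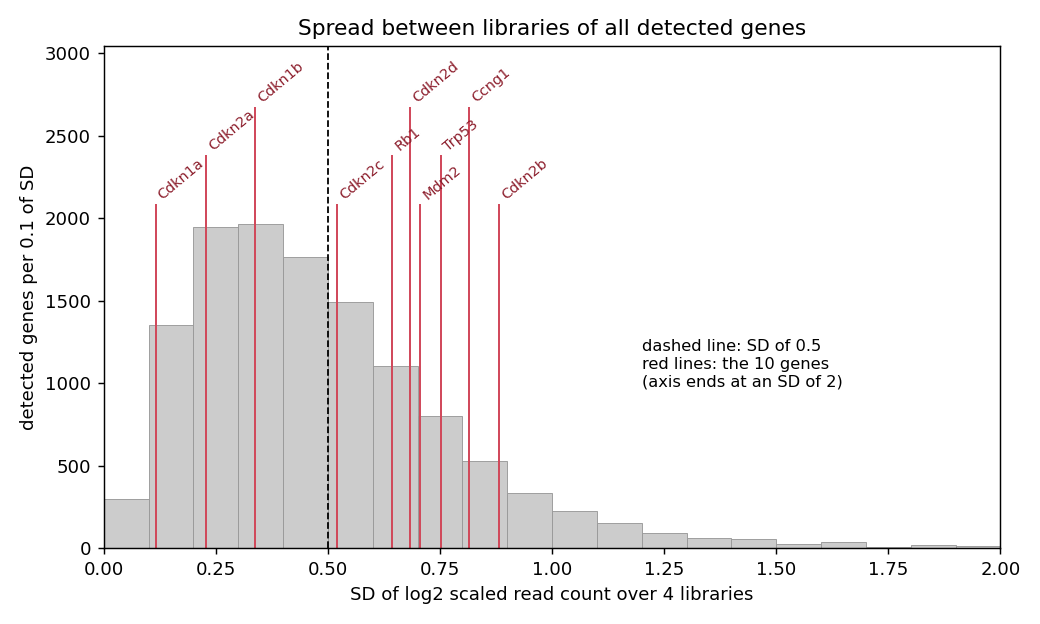
Number of detected genes (y axis) by SD of the log2 scaled read count over 4 libraries (x axis, in steps of 0.1), with the 10 genes as red lines and the calling threshold of 0.5 dashed. Cdkn1a (0.12) sits at the low end, and Cdkn2b (0.88) has an SD above that of 90.8% of detected genes.

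Library 3 held the lowest value of 8 of the 10 members, against 52.9% of detected genes, library 1 the highest value of 6, against 53.6%, and library 2 that of 3, against 23.6%. With size factors library 3 was lowest for 4 members, against 28.7%, and library 1 highest for 5, against 31%. Summed adventitial fibroblast markers were also highest in libraries 1 and 2 (as were 6 of the 7 genes singly), and smooth muscle markers were lowest in library 2. The part of these markers in the members' values was not tested. In bulk RNA, fewer cells of a type and less RNA per cell cannot be told apart.

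Differences between 2 genes of the same library do not depend on a scaling that is the same for all its genes, though they do depend on the gene lengths used. Per kilobase of exon, Cdkn1a exceeded Ccng1 by 0.14, 0.69, 1.86 and 1.93 in libraries 1 to 4 (1.16 ± 0.88), and Mdm2 by 2.12, 2.52, 3.57 and 3.70 (2.98 ± 0.78). With the longest transcript as the length, Cdkn1a exceeded Ccng1 by 0.91, 1.47, 2.63 and 2.71. Under both lengths Cdkn1a was above Ccng1 in 4 of 4 libraries, by least in library 1 and by more in libraries 3 and 4. It exceeded Trp53 by 3.18, 3.46, 4.88 and 4.42 (3.99 ± 0.80).

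Other differences varied less between libraries, in members of the p53 pathway and outside it. Ccng1 exceeded Mdm2 by 1.98, 1.83, 1.72 and 1.77 (1.82 ± 0.11), the smallest SD of the 45 member pairs, whose median SD was 0.54. Among the 12305 other detected genes, 84 (0.683%) had a steadier difference to Mdm2 than Ccng1 had, and 55 (0.447%) a steadier one to Ccng1 than Mdm2 had. The pair was singled out after its values were seen, and after a correction of each library for exon length and GC content, added after the data were seen, its SD was 0.20, the rank of 4 among the 45, with Cdkn2a minus Mdm2 lowest (0.17). Cdkn2b was 0.77 ± 0.18 below Ccng1 and 2.06 ± 0.18 above Trp53, and the correction raised both SDs to 0.41. Ccng1 minus Trp53 was 2.83 ± 0.26 and Mdm2 minus Trp53 1.01 ± 0.25. Some pairs of inhibitors had similar SDs, the lowest being 0.20 for Cdkn2d minus Cdkn2c and 0.26 for Cdkn2a minus Cdkn1b. Others varied more, such as Cdkn1a minus Cdkn2b (0.93), Cdkn2a minus Cdkn2b (0.74) and Cdkn2b minus Cdkn2c (0.60).

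**Figure D3:**
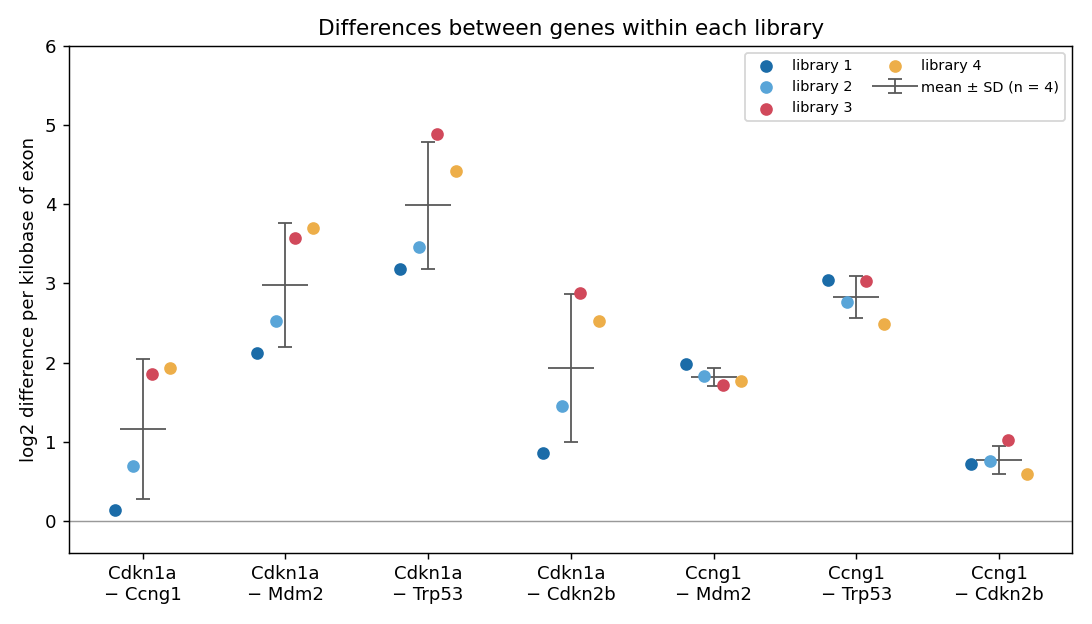
Log2 differences per kilobase of exon (y axis) for 7 pairs of genes (x axis) in libraries 1 to 4 (coloured points), with mean and SD (grey, n = 4). Cdkn1a minus Ccng1 ran from 0.14 to 1.93, while Ccng1 minus Mdm2 stayed between 1.72 and 1.98.

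Levels of different genes were ordered per kilobase of annotated exons. Cdkn1a (7.64 ± 0.12) and Cdkn2a (7.27 ± 0.23) came first, followed by Ccng1 (6.49 ± 0.81), Cdkn2b (5.72 ± 0.88), Mdm2 (4.66 ± 0.71), Cdkn2d (4.53 ± 0.68), Cdkn2c (4.41 ± 0.52), Trp53 (3.66 ± 0.75), Cdkn1b (3.65 ± 0.34) and Rb1 (1.37 ± 0.64). Of the 9 neighbouring pairs in this order, 4 differed with 1 sign in 4 of 4 libraries and by more than their SD: Ccng1 above Cdkn2b (0.77 ± 0.18), Cdkn2b above Mdm2 (1.05 ± 0.25), Cdkn2c above Trp53 (0.75 ± 0.46) and Cdkn1b above Rb1 (2.28 ± 0.56). The other 5 did not. Cdkn1a minus Cdkn2a was 0.27, -0.02, 0.52 and 0.72, and Trp53 minus Cdkn1b 0.40, 0.32, -0.48 and -0.21. Cdkn2a minus Ccng1 was negative in library 1 (-0.14) and positive in the other 3. These separations depended on the length used. In library 1, Cdkn2c minus Trp53 was -0.03 with the longest transcript and -0.44 without division by length, so it no longer had 1 sign. With the longest transcript, Cdkn1a minus Cdkn2a, Cdkn2a minus Ccng1 and Mdm2 minus Cdkn2d were positive in 4 of 4 libraries.

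Over all 45 pairs of members, 39 had 1 sign in 4 of 4 libraries. An exact sign-flip permutation test over 4 libraries has 16 arrangements, of which 2 are as extreme as a uniform sign, so no pair could pass 0.05 in a two-sided test. The largest was Cdkn1a above Rb1, by 6.27 ± 0.71.

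**Figure D4:**
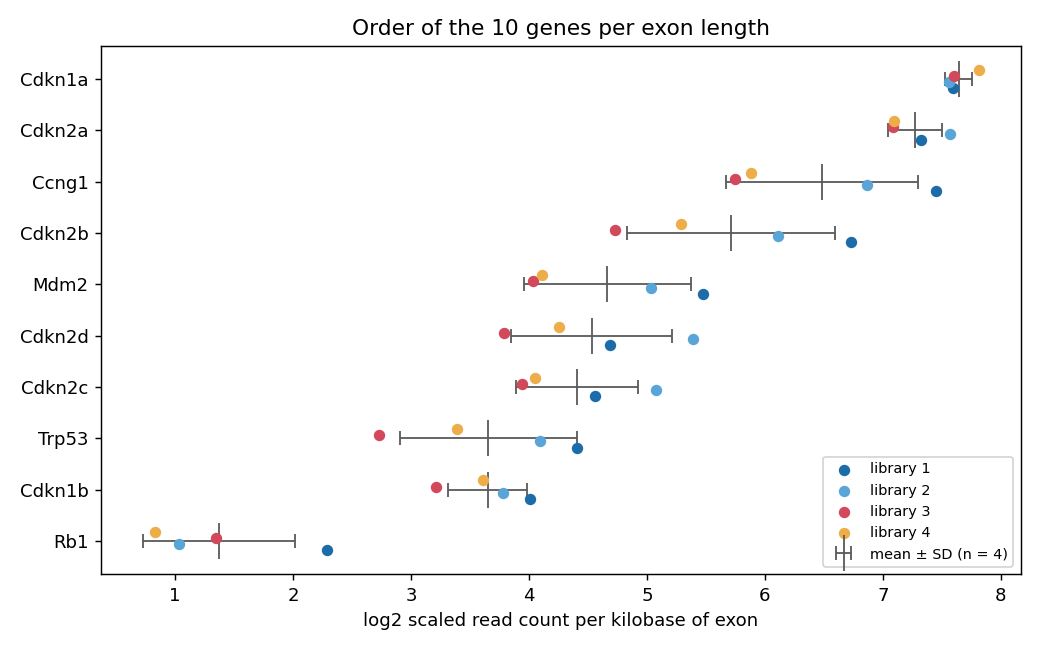
Log2 scaled read counts per kilobase of exon (x axis) of the 10 genes (y axis, ordered by mean) in libraries 1 to 4 (coloured points), with mean and SD (grey, n = 4). The points of Cdkn1a and Cdkn2a overlap at the top, and those of Rb1 lie below all others.

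Within the 6 inhibitor genes, Cdkn1a made up 36.8%, 35.1%, 49.2% and 50.1% of their summed level per kilobase in libraries 1 to 4, a mean of 42.8% ± 7.97. Cdkn2a made up 30.5%, 35.4%, 34.4% and 30.5% (32.7% ± 2.59). Cdkn2b was below both in every library, with 20.2%, 12.8%, 6.71% and 8.73%. Cdkn2d (5.12% ± 1.89), Cdkn2c (4.59% ± 1.18) and Cdkn1b (2.67% ± 0.31) made up the remainder. Cdkn1a and Cdkn2a together thus held most of the summed level of these genes in every library, but the Cdkn2a share includes Arf transcripts, which encode no CDK inhibitor, in a proportion that the table does not give. Using the longest transcript in place of all exons gave Cdkn1a 51.5% and Cdkn2a 30.3%.

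**Figure D5:**
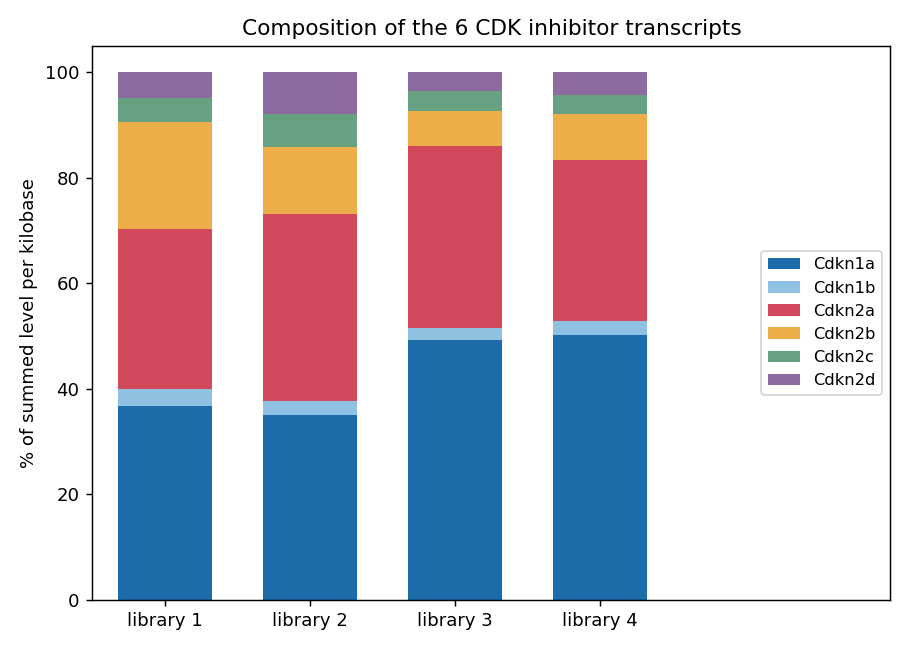
Share of each CDK inhibitor gene in the summed scaled reads per kilobase of exon of the 6 genes (y axis, percent), by library (x axis). Cdkn2b takes 20.2% in library 1 and 6.71% in library 3, and Cdkn1a 36.8% and 49.2%.

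Beside kinase genes, Cdkn1a exceeded Cdk2, whose product p21 binds, by 5.64, 5.63, 6.90 and 6.78 log2 units per kilobase (6.24 ± 0.69), and the difference was larger in libraries 3 and 4 than in 1 and 2. Cdkn2a exceeded Cdk4 by 0.30, 0.38, 0.97 and 0.67 (0.58 ± 0.30). This sets the whole Cdkn2a gene, p16 and Arf together, against Cdk4, which p16 binds and Arf does not. With the longest transcript the difference was 0.31 ± 0.30, and without division by length it was -0.89. Mdm2 exceeded Mdm4, its relative that inhibits p53 without degrading it, by 4.88, 5.80, 5.71 and 5.18 (5.39 ± 0.44). Rb1 exceeded the pocket protein gene Rbl2 by 0.29, 0.03, 1.01 and 0.65, and Rb1 minus Rbl1 was 0.86, -0.20, 0.98 and 0.72. Neither order was firm: Rb1 minus Rbl1 changed sign in library 2, and Rb1 minus Rbl2 did so with the longest transcript (-0.22 in library 2) and, without division by length, was negative in libraries 1 and 2 (-0.04 and -0.30).

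In all, 10 lists of related genes, 124 distinct genes without the members, set these values in their pathways, and 117 were detected. Of these 70 (59.8%) had an SD above 0.5 against 40.5% of detected genes, and 46 with size factors against 30.7%. Among 12 G1 cyclins, CDKs and their activators, all were detected and 8 were variable (3 with size factors). The D-type cyclin genes Ccnd2 (10.77 ± 0.86) and Ccnd1 (10.26 ± 0.61) were the highest of the list. Ccne1, a cyclin of Cdk2, averaged 5.29 ± 1.01, and Ccne2 was lowest at 1.88 ± 0.96. Of 12 pocket protein and E2F genes, 11 were detected and 9 variable (4 with size factors), led by the activator E2f1 (6.81 ± 0.73). E2f7, a repressor of the family, averaged 2.90 ± 1.08, and E2f8 had 120, 84, 0 and 49 reads.

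Of the 10 lists, that of E2F-regulated S-phase genes had the most variable genes. All 14 were detected, 13 were variable (11 with size factors), and all 14 had their lowest value in library 3, against 52.9% of detected genes. The list median was 5.86, 6.54, 4.36 and 4.83 in libraries 1 to 4. Its helicase genes Mcm2 and Mcm3 averaged 4.85 ± 1.42 and 5.66 ± 1.36, Rrm1, a subunit of ribonucleotide reductase, 7.13 ± 1.03, and the licensing gene Cdc6 had the widest SD at 2.70 ± 1.65. The libraries in which Cdkn1a stood highest over Ccng1, Mdm2 and Cdk2 were thus those with the lowest S-phase genes, as a description over 4 libraries. Cdkn1a itself was even as deposited (9.47 ± 0.12), and the deposited medians of detected genes were also lower in libraries 3 and 4. Cdkn1a minus Rb1 did not follow the pattern (5.31, 6.53, 6.26 and 6.98). A link to the S-phase genes was not tested.

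Targets of p53 beside the members were taken as lists. Of 18 targets linked to growth arrest and repair, all were detected and 9 were variable (5 with size factors). Phlda3, an inhibitor of Akt, was highest at 9.67 ± 0.13, and steady as deposited only. With size factors its SD was 0.37, against a median of 0.37 over detected genes. Gadd45a averaged 5.20 ± 0.40, Sesn1 3.68 ± 0.93 and the kinase gene Plk3 2.57 ± 0.63. Sfn, the 14-3-3 sigma gene, had 5.01, 5.54, 7.29 and 7.17 (6.25 ± 1.15), so its higher values were in libraries 3 and 4, where those of Mdm2 and Ccng1 were lower. Of 14 apoptotic targets, all were detected and 5 were variable (2 with size factors). Bax, the pore-forming effector, was highest at 10.66 ± 0.54, Bbc3 (Puma) averaged 4.28 ± 0.21, Pmaip1 (Noxa) 4.30 ± 1.02 and Trp53i11 1.62 ± 0.67.

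Of 14 p53 regulators and relatives, 12 were detected and 9 variable (5 with size factors, and 5 without library 1). The deubiquitinase gene Usp7 was highest at 6.10 ± 0.39, the checkpoint kinase gene Chek2 varied most (2.23 ± 1.22), and Mdm4 averaged 3.16 ± 0.96. The p53 relatives were not detected: Trp63 had 60, 81, 0 and 29 reads and Trp73 3, 6, 0 and 4. A count of 0 allows up to 3 reads, a limit that covers counting error only.

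Regulators of the Cdkn2a-Cdkn2b locus were all detected (16 of 16), with 5 variable (4 with size factors). Id1, an inhibitor of bHLH factors, was highest at 8.31 ± 0.27. The Polycomb genes Ring1, Bmi1, Ezh2 and Cbx7 averaged 6.90 ± 0.37, 4.57 ± 0.37, 3.84 ± 1.08 and 1.35 ± 0.42. Ezh2, the methyltransferase that silences the locus in young cells, had 4.69, 4.85, 2.82 and 2.99. In the 9 genes of p27 turnover and control, 8 were detected and 3 variable (2 with size factors, 1 without library 1 and 5 without library 3), with Rhoa highest (10.33 ± 0.09) and Cks1b at 5.11 ± 0.83. Skp2, the ligase subunit that targets p27, was the exception, with 151, 124, 5 and 48 reads. Skp2 was thus scarcest in library 3, where Cdkn1b was lowest too, as were 52.9% of detected genes. With size factors Cdkn1b varied little (SD 0.10), and a link between the 2 genes was not tested.

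Of 13 senescence-associated genes, 10 were detected and 8 variable (7 with size factors, and 3 without library 2). Lmnb1, which is lost in senescent cells, averaged 6.07 ± 0.81, and Hmgb1 4.60 ± 0.27. Timp1 was highest at 12.50 ± 0.59 and Igfbp3 averaged 3.59 ± 1.14. The secreted factors Il6, Cxcl1 and Mmp3 were not detected by the rule: Il6 had 270, 232, 0 and 0 reads, Cxcl1 11, 7, 0 and 0, and Mmp3 785, 2492, 13 and 6.

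Genes with profiles most like those of 2 members were sought among 10964 detected genes by the Euclidean distance between log2 values centred over the 4 libraries. Closest to Cdkn2b, the member with the largest SD, were Klhl5 (distance 0.05, levels of 7.04, 6.41, 5.03 and 5.54), Mtr and Vangl1. Closest to Cdkn1a were Lbh (0.03, with 10.74, 10.69, 10.76 and 10.93), Nagk and Adat2. With 4 libraries many genes come close, and nothing on shared function or control follows from the likeness.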

How the data were processed

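The authors deposited log2 values of 25965 genes for the 4 libraries in a single table. The submitters' processing notes name Trim Galore, cutadapt, TopHat and the build GRCm38. Libraries were stranded poly(A) libraries from RNA with integrity numbers of 7.8 to 9, per the labels' protocols. The sources used here give no counting tool, annotation or strand setting. The deposited values are log2 whole reads multiplied by 1 constant per library, and a gene without reads is listed as if it had 0.9 read. This was read from the values: 99.7% to 99.8% came out whole within 0.05 read. The recovered reads sum to 1.83 to 1.94 times the total that the constant implies, and the reason was not tested.

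Detection, SDs, exact sign-flip tests and the chi-square test were computed in Python 3.11.15 (pandas 2.3.3, numpy 2.4.6, scipy 1.17.1, statsmodels 0.14.6; figures with matplotlib 3.10.9) and tested on simulated data. Lengths were exon unions from GENCODE M21, matched for 10 of 10 members, 5 of them with the same ends as in the deposited table, whose coordinates are printed. The members and lists were chosen with earlier results of these data known. Named genes were the 10 members, in each list the first 2 measured, the highest, the lowest and the most variable gene and up to 5 not detected, 3 genes most like Cdkn1a and Cdkn2b each, and partners compared with members. The leukocyte marker C1qa was named besides, after its reads were seen, and was not among the genes checked for an outlying library. Older symbols matched 2 of 169 list entries. Alternatives were size factors, other lengths, thresholds and detection rules, a pseudocount of 1, leaving out each library, and a length and GC correction added after the data were seen.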

Additional observations from a re-analysis of the deposited data

Results flagged for a closer look

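Of 75 named genes with reads, 4 had 1 library whose gap to the nearest other, over the range, was above Dixon's 95% critical value for 4 samples, and chance flags about 1 in 20. All 4 were in library 1. Cdkn2aipnl was low there at 5.20, against 5.92, 5.90 and 5.86. Phlda3 was low at 9.48, against 9.75, 9.72 and 9.74. Bmi1, a Polycomb repressor of Cdkn2a, was high at 5.13, against 4.37, 4.38 and 4.42. The mesothelial marker Wt1 was at -0.95 (15 reads) in library 1 and had no reads in the others. None of the 10 members was flagged.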

How the results depend on the processing

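The number of members with an SD above 0.5 was 7, against 40.5% of detected genes, and it was 4 with median-ratio size factors, against 30.7%. After a length and GC correction (added after the data were seen) it was 4, against 27.8%. At an SD above 1 it was 0, against 5.8%. Leaving out 1 library gave 5 to 7, against 27.2% to 46.0%. The listed genes called variable were 70, and 46, 45 and 19 under the same 3 settings, with 53 to 73 when 1 library was left out. The same shares of detected genes stand beside these counts. Members detected stayed at 10 under all settings run. The number of pairs with 1 sign, 39, ranged from 38 (no division by length) to 42 (longest transcript). The number of separated neighbours, 4, ranged from 4 to 6. Neighbours were taken anew from the order in each setting, so they were not always the same pairs. Without division by length, Cdkn2b minus Mdm2 turned to -0.82 and Cdkn2a minus Cdk4 to -0.89, as the members' lengths differ. Leaving out 1 library gave 39 to 41 pairs, 4 to 5 neighbours and 117 to 119 listed genes detected. With size factors Cdkn2c (0.38), Trp53 (0.49) and Mdm2 (0.45) fell under the SD threshold. The cause of the shifts with scaling was not tested. No paired analysis was possible because all libraries belong to 1 group.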
